A study of Mus musculus with 7 samples.

Results

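Epcam, Cdh1, Cdh16, Cd24a, Krt7, Krt8, Krt18, Krt19 and Vim are 9 genes that are widely used to tell epithelial cells from the other cells of a tissue. They were listed by name, with earlier results of these data known, and all 9 were present among the 30879 genes of the single-cell table. Their levels were followed in the follicular cells of the mouse thyroid, in the other cells of the gland, and in mouse thyroid follicular cell organoids (TFCOs), which are three-dimensional cultures grown from the gland's follicular cells.

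The samples were 2 of primary thyroid tissue, 3 of late passage TFCOs and 2 of early passage TFCOs, from wild-type, untreated C57BL/6 mice. TFCOs were grown in basement membrane extract with forskolin, R-spondin 3, EGF, FGF10 and the TGF-β receptor inhibitor A83-01, so that these agents were shared by late and early TFCOs and absent from tissue. Live single cells were sorted into 384-well plates and sequenced by SORT-seq, which counts molecules at the 3′ end of the transcript by unique molecular identifiers (UMIs). The series text speaks of 2 biological replicates per group, which differs from the 3 late samples, and no label ties a TFCO sample to a mouse or to a tissue sample, so p-values measure the spread between these samples, which may be technical.

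Epithelial cells hold to each other through adhesion proteins and carry an inner skeleton of keratins. Cdh1 encodes E-cadherin, the main adhesion protein of adherens junctions. Cdh16 encodes kidney-specific cadherin, a cadherin known from kidney tubules and from the thyroid follicle. Epcam encodes an epithelial adhesion protein, and Cd24a a small glycoprotein anchored to the cell surface. Keratins work as pairs of a type II protein (Krt7, Krt8) and a type I protein (Krt18, Krt19), and these 4 are typical of simple epithelia. Vim encodes vimentin, the intermediate filament protein of mesenchymal, endothelial and many immune cells, which some epithelial cells also make in culture.

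In GENCODE M21 (GRCm38), Krt7 (chr15:101411043-101430313, plus strand), Krt8 (chr15:101996698-102004482, minus strand) and Krt18 (chr15:102028180-102032027, plus strand) lie on chromosome 15. Krt8 and Krt18 are neighbours there, 23.7 kb apart with no annotated gene between them. The other members lie at chr2:13573927-13582826 (Vim), chr8:104601911-104624396 (Cdh16), chr8:106603351-106670246 (Cdh1), chr10:43578284-43584265 (Cd24a), chr11:100140810-100148665 (Krt19) and chr17:87635979-87651129 (Epcam). RefSeq promoters (GRCm38.p6) matched 5 of the 9 members (Epcam, Krt7, Krt8, Krt18 and Vim). Those of the chromosome 15 keratins are shown because of their sample values. Krt7 was lower in each TFCO sample than in both tissue samples, and Krt8 and Krt18 were higher in cycling cells of each TFCO sample. The limits of these differences are given below. The 250 bases before the RefSeq start are given 5′ to 3′. These starts differ from the GENCODE starts above. The Krt7 window lies within the GENCODE gene, and the Krt8 and Krt18 windows run past the GENCODE starts of their genes. Capitals mark matches, on either strand, to 4 motifs that were searched.
Krt7 (chr15:101412153-101412402, plus strand): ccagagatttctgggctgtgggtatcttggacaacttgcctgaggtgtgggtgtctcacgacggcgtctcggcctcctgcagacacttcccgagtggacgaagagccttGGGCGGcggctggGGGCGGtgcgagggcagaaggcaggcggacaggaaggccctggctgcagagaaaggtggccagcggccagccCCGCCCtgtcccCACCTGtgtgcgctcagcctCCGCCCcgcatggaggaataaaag
Krt8 (chr15:102004343-102004592, minus strand): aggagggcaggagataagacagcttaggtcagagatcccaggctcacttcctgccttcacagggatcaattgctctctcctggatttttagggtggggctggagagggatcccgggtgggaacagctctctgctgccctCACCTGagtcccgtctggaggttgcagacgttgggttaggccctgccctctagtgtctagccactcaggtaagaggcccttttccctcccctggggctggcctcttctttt
Krt18 (chr15:102027966-102028215, plus strand): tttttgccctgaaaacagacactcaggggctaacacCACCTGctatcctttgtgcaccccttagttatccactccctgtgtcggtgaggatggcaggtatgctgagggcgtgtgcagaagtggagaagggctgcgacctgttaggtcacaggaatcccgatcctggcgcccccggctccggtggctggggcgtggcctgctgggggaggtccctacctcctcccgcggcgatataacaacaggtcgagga
The GC box GGGCGG had 4 matches before Krt7 and none before Krt8 or Krt18, and 32.7% of all 32851 promoter windows of this length held it. The E-box CACCTG, whose reverse complement is CAGGTG, had 1 match in each of these windows, against 17.2% of all windows. The TATA box TATAAA (12.4% of all windows) and the CCAAT box CCAAT (33.8%) had no match in them. The motifs do not overlap each other in these windows, and a match is a description of the letters only. The windows shown were chosen by the results of their genes, and their counts were not tested against the shares of all windows. Of the windows not shown, that of Epcam had 2 matches to CACCTG and 1 to GGGCGG. That of Vim had 1 match to TATAAA, 2 to CCAAT and none to CACCTG.

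Of the 2590 cells in the table, 2035 had at least 1000 UMIs and were used, of which 305 and 273 came from tissue and 235 to 360 from each TFCO sample. The median depth was 3608 and 3368 UMIs per cell in tissue and 5011 to 12380.5 in TFCO samples. Late sample 2 and early sample 1 were the deepest and also held most cycling cells. Every one of the 384 well barcodes was used in more than 1 sample, and 4174 of 19498 genes followed the well barcode across TFCO plates with a correlation above 0.05, among them Epcam at 0.0506 and none of the 7 other members for which it could be computed. Between the tissue plates, Epcam, Cd24a, Krt18 and Vim were above 0.05 (0.0529 to 0.0623), and Krt7, Cdh16, Cdh1 and Krt8 were at -0.0620 to -0.0148. The share of all genes above 0.05 there is not given, so these values do not set any member apart.

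Follicular cells of the tissue were found by clustering without the 9 members and named by markers of the follicular cell, led by thyroglobulin (Tg). There were 116 follicular-like cells (59 and 57), at a median of 1997.5 UMIs, beside 187 endothelial-like, 56 mural-like, 21 stromal-like, 57 immune-like and 4 erythroid-like cells. A further 131 cells led by Gm10801 and similar features stayed unnamed, and 6 cells with more C cell, parathyroid or erythroid UMIs than follicular UMIs were left out of the follicular-like class. The 14 follicular markers summed to 1040.2 and 1432 UMIs per 10000 in tissue follicular-like cells and to 110 to 202 in TFCOs, and none of the 14 was at 0 in either. Tg itself was at 1200.2 ± 275 UMIs per 10000 (SD, n = 2) in tissue and at 113 ± 37.8 (SD, n = 5) in TFCOs. These class values describe cells that were grouped by the same data, so levels between tissue classes carry no test.

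Among the cell classes of the gland, Cdh16 and Krt8 were near 0 in endothelial-, mural-, stromal- and immune-like cells, Vim was near 0 in follicular-like cells, and Cd24a was shared with endothelial-like cells. A level is the mean over the cells of a sample of the UMIs per 10000 UMIs of a cell. Cdh16 was at 5.95 and 4.68 in follicular-like cells and at 0 to 0.141 in the endothelial-, mural-, stromal- and immune-like cells of both tissue samples. Krt8 was at 0.781 and 0.692 in follicular-like cells and at 0 to 0.0653 in those other classes. Tg, which those other cells should lack, stood there at 1.11 to 3.05% of its follicular-like level, against 0 to 3.02% for Cdh16.

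Epcam was at 3.48 and 2.77 in follicular-like cells and at 0 to 0.464 in those 4 other classes, and Krt7 at 1.47 and 0.724 against 0 to 0.238. For both genes the highest value of these 4 classes was found in immune-like cells. Cdh1 was at 3.20 and 2.21 in follicular-like cells and at 0.116 to 0.657 in these classes, which is 5.24 to 29.7% of its follicular-like level and above the share of Tg in each of them. Krt19 was at 0.665 and 0.218 in follicular-like cells, and 3 mural-like cells of tissue sample 2 brought that class to 0.379. Krt18 was at 0.533 and 1.48 in follicular-like cells and reached 0.374 in the immune-like cells of tissue sample 1. Both keratins rest on few molecules here, with 51 UMIs of Krt19 and 182 of Krt18 in all follicular-like cells.

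The 6 cells left out for their C cell, parathyroid or erythroid UMIs (5 and 1) also carried epithelial genes. Epcam was at 4.30 and 6.91 in them, Cdh1 at 5.25 and 0.987, Krt7 at 3.05 and 0, and Krt8 at 0.632 and 0.987. Epcam was thus above its follicular-like level in both samples, and Krt7 and Cdh1 in tissue sample 1 only. These 2 values rest on 8 UMIs of Krt7 in 2 of 5 cells and on 6 UMIs of Cdh1. For Cdh1 the highest cell was at 23.8 and the median at 1.06. Cdh16 was at 0 and 0.987 there, the latter from a single UMI.

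Cd24a was at 8.53 and 9.46 in follicular-like cells and at 5.09 and 7.97 in endothelial-like cells, where 137 of 187 cells held it. In mural- and stromal-like cells it was at 0.164 to 0.570, so that the endothelial level was not shared by these classes. Vim was highest in stromal-like cells, at 8.04 and 6.96, and lower in mural-like (4.87 and 3.85), endothelial-like (2.52 and 1.42) and immune-like cells (1.72 and 3.82). The orders of the mural-, endothelial- and immune-like levels of Vim differed between the 2 tissue samples.

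**Figure D1:**
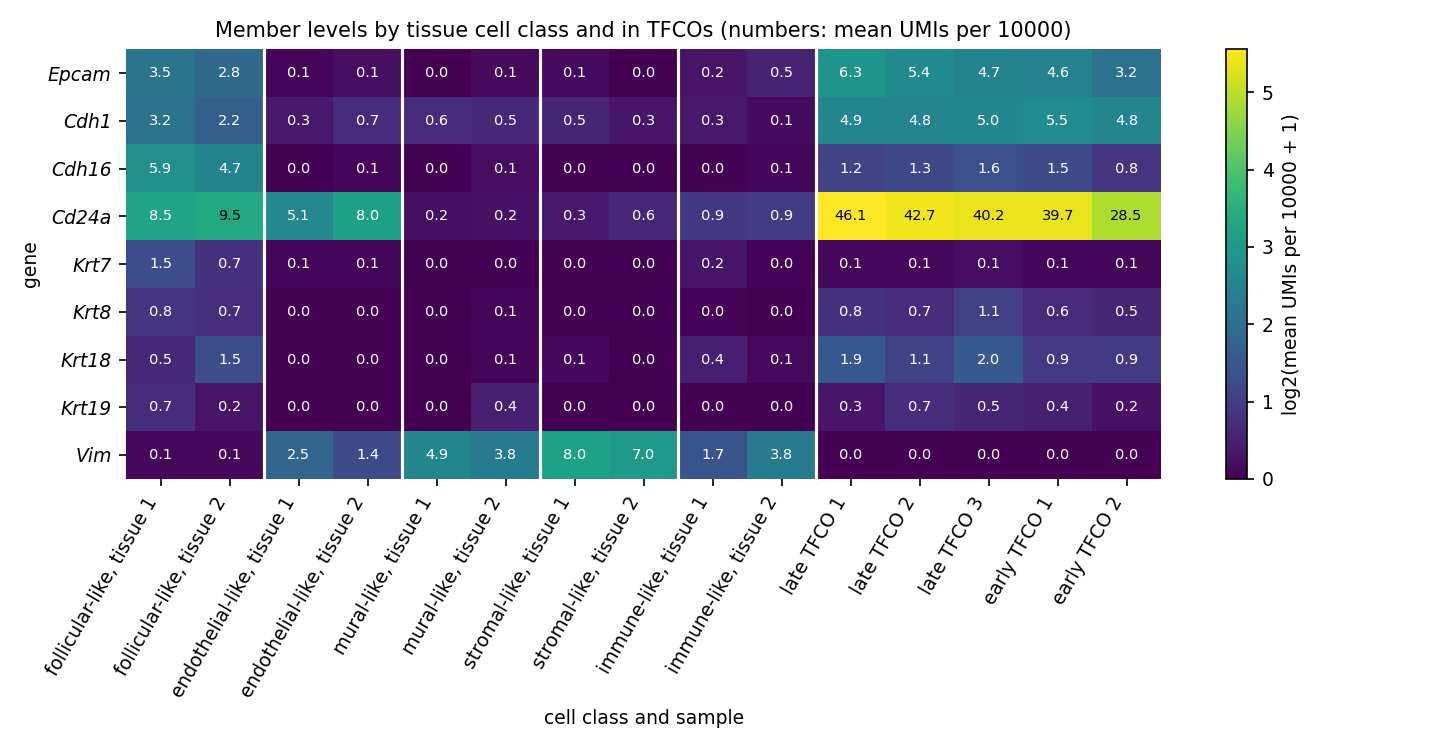
Heat map of the mean level of each gene (rows) in each tissue class and sample and in each TFCO sample (columns). Colour gives log2(mean UMIs per 10000 + 1) and the printed number the mean UMIs per 10000. Vim is high in stromal-like cells (8.04 and 6.96) and close to 0 in follicular-like cells and in TFCOs, and Cd24a is highest in TFCOs (28.5 to 46.1).

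The follicular-like cells of the tissue fell into 2 clusters, one of 89 cells and one of 27 cells of greater depth. The mean share of mitochondrial UMIs was 12.8 and 10.8% in the shallower cluster and 8.07 and 5.11% in the deeper one, against 4.51 to 7.30% in TFCO samples. Cd24a was at 16.7 and 20.4 in the deeper cluster and at 6.45 and 5.54 in the shallower one, and it was among the genes leading the deeper cluster. Krt8 was likewise at 1.86 and 2.34 in the deeper and at 0.505 and 0.103 in the shallower cluster. Cdh1 was at 2.32 and 2.22 in the deeper and at 3.42 and 2.21 in the shallower cluster, and Cdh16 at 7.34 and 4.25 against 5.59 and 4.84, so neither gene differed in the same direction in both samples. Depth, mitochondrial share and these levels moved together, and the part of depth or mitochondrial share in them was not tested.

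A pair of tissue 2 cells stood apart by depth, with 268847 and 151110 UMIs, while the next follicular-like cell had 15122. These cells held 151 of the 176 Krt8 UMIs, 152 of the 182 Krt18 UMIs and 69 of the 71 Vim UMIs found in follicular-like cells, but 7790 of the 45974 Tg UMIs. Without them the tissue 2 level of Vim went from 0.0866 to 0.0405 and that of Krt8 from 0.692 to 0.609, and the other members moved by less than Krt8 in proportion.

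The main comparison asked how follicular cells in culture differ from those in the gland. Cd24a was higher and Cdh16 lower in TFCOs than in tissue follicular-like cells, and Cdh1 was higher by a smaller amount. Epcam, Krt8 and Krt18 did not pass the test. Group means on the log2 scale, with 1 added to each level, were tested with limma across 4312 genes, with Benjamini-Hochberg adjustment over all of them. Of all genes, 31.9% passed at an adjusted p under 0.05, with 24.5% higher and 7.33% lower in TFCOs, and 3 of the 6 members above the filter on low levels passed. Krt7, Krt19 and Vim lay under that filter, a mean of 0.5 over the tissue, late and early groups. TFCO levels thus weighed more than tissue levels in it. Genes high in TFCOs alone entered more easily than genes high in tissue alone, which tilts the shares higher and lower.

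Cd24a was at 8.53 and 9.46 in the tissue samples, at 46.1, 42.7 and 40.2 in the late and at 39.7 and 28.5 in the early samples. Every TFCO sample stood far above both tissue samples, and the TFCO mean was 39.4 ± 6.62 (SD, n = 5) against 8.99 ± 0.659 (SD, n = 2). This is 1.97 on the log2 scale (SE 0.38, adjusted p = 0.00405 with limma). Cd24a was found in 62.1% of tissue follicular-like cells and 99.3% of TFCO cells, and after each cell was thinned to 1000 UMIs in 49.1% and 94.3% (means of the samples). It also stood above the tissue median of 6.61 in 97.9% of TFCO cells. Against the deeper tissue cluster alone the log2 difference was 1.00 (adjusted p = 0.339), and with UMIs summed over cells it was 1.67 (adjusted p = 0.0839), or 1.68 (adjusted p = 0.0106) once the pair of deepest cells was left out.

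Cdh16 was at 5.95 and 4.68 in tissue, at 1.20, 1.32 and 1.56 in the late and at 1.45 and 0.788 in the early samples. The groups did not overlap, and the mean was 1.26 ± 0.299 (SD, n = 5) in TFCOs against 5.31 ± 0.896 (SD, n = 2). TFCOs differed by -1.50 on the log2 scale (SE 0.23, adjusted p = 0.00159 with limma), which passed under each of the 23 alternatives that were run. In cells thinned to 1000 UMIs, Cdh16 was found in 34.4% of tissue follicular-like and 10.7% of TFCO cells. In TFCOs, 12.8% of cells stood above the tissue median of 3.36, a share that also depends on depth, which was greater in TFCO cells.

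Cdh1 was at 3.20 and 2.21 in tissue, at 4.88, 4.80 and 5.04 in the late and at 5.47 and 4.82 in the early samples. The TFCO samples lay close together (5.00 ± 0.275, SD, n = 5) and above both tissue samples (2.70 ± 0.695, SD, n = 2). The fitted difference, 0.71 in log2 (SE 0.25), was close to the threshold (adjusted p = 0.0441 with limma). It stayed positive and failed the test under 15 of 23 alternatives, where the adjusted p ranged from 0.0101 to 0.340 over all of them. Left out one at a time, tissue sample 2 (adjusted p = 0.0980), late sample 3 (0.0543) and early sample 1 (0.0714) each ended the call.

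Epcam was at 3.48 and 2.77 in tissue, at 6.30, 5.36 and 4.70 in the late and at 4.56 and 3.21 in the early samples. Early sample 2 lay between the tissue samples, so the groups overlapped. On the log2 scale the difference of 0.44 (SE 0.27, 95% interval -0.16 to 1.04) did not pass, with an adjusted p of 0.232 from limma.

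Krt8 was at 0.781 and 0.692 in tissue, at 0.756, 0.665 and 1.06 in the late and at 0.584 and 0.487 in the early samples. Tissue values lay within the TFCO range, with a log2 difference of -0.055 (95% interval -0.40 to 0.29, limma adjusted p = 0.814). Krt8 did not pass or change sign under any of the 23 alternatives, but the difference ranged from -0.89 to -0.018. With UMIs summed over cells, the pair of deepest cells included, it was -0.65 (limma adjusted p = 0.162). In the deeper tissue cluster Krt8 was at 1.86 and 2.34, above each TFCO sample. Krt18 was at 0.533 and 1.48 in tissue, at 1.87, 1.10 and 1.96 in the late and at 0.896 and 0.936 in the early samples. The 2 tissue samples differed more from each other than the group means did, and the log2 difference was 0.20 (95% interval -0.32 to 0.71, limma adjusted p = 0.542). Without tissue sample 1 its sign turned, to -0.15.

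**Figure D2:**
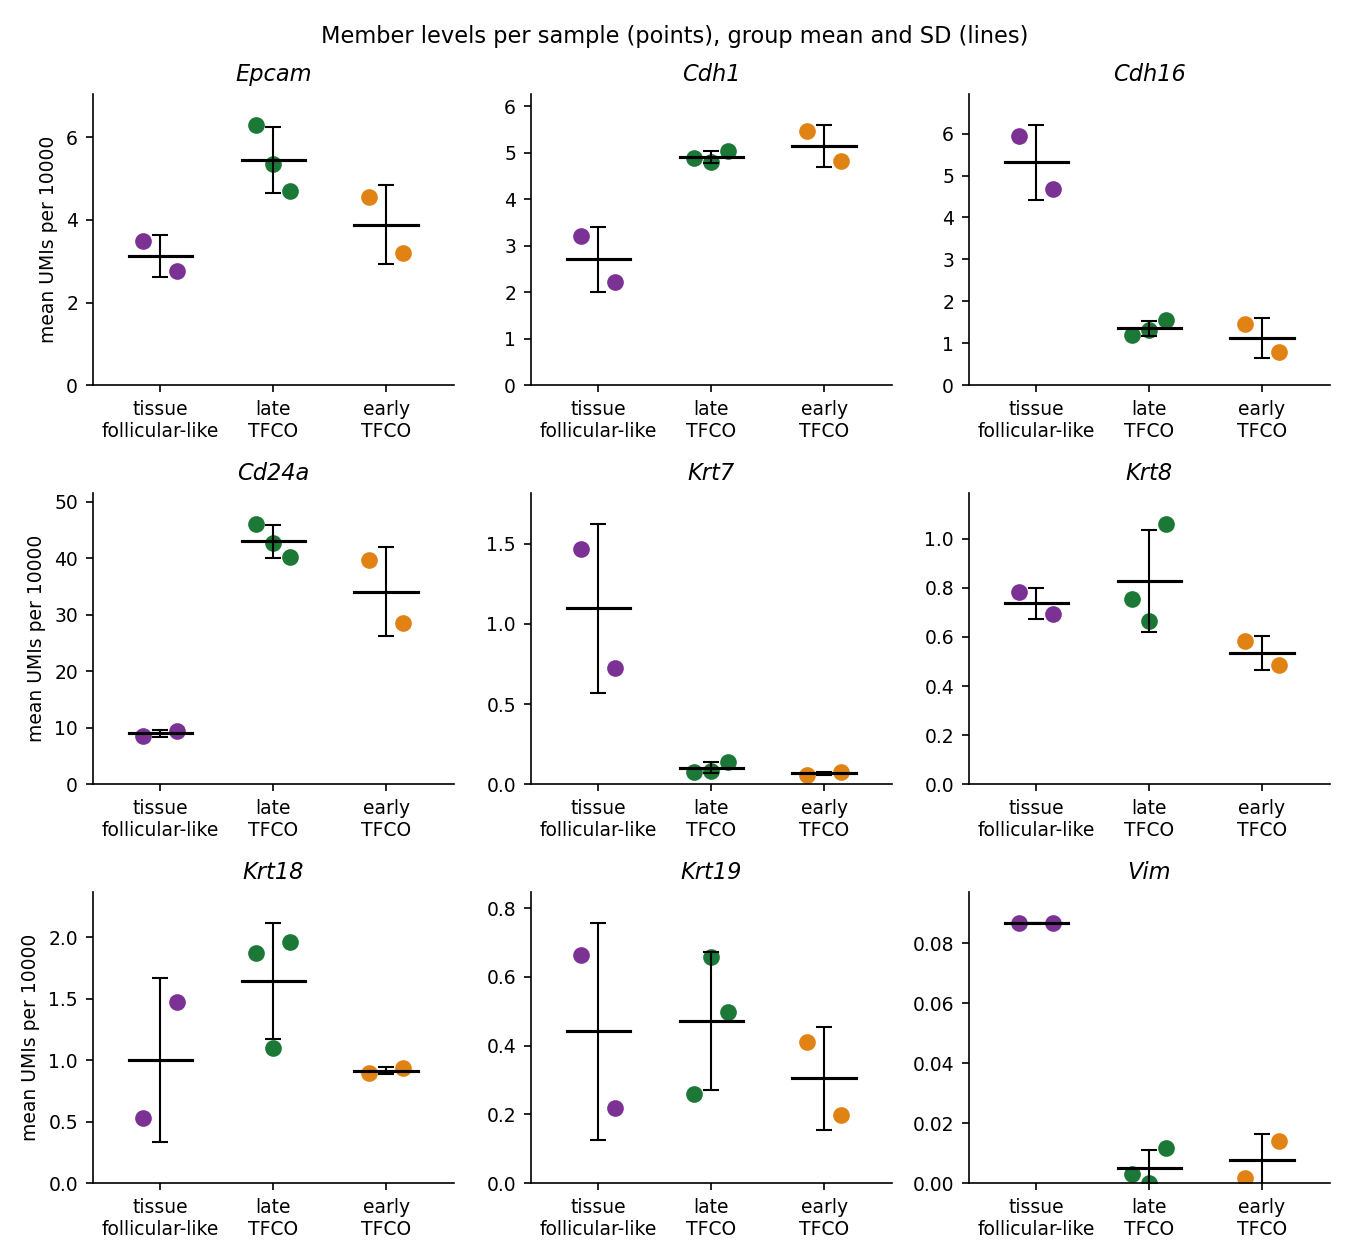
Mean UMIs per 10000 of the 9 genes in each sample (points), with the group mean (horizontal line) and SD (error bar, drawn down to 0 at most) for tissue follicular-like cells (n = 2), late TFCOs (n = 3) and early TFCOs (n = 2). Each panel has its own linear axis. TFCO samples lie above both tissue samples for Cd24a and Cdh1 and below them for Cdh16, Krt7 and Vim.

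Krt7 was at 1.47 and 0.724 in tissue, at 0.0783, 0.0848 and 0.141 in the late and at 0.0603 and 0.0732 in the early samples. Each TFCO sample lay below both tissue samples, and in cells thinned to 1000 UMIs the share with Krt7 was 15.3 and 5.26% in tissue and 0.326 to 1.28% in TFCOs. Over all genes with no filter, where 2.84% of 30756 genes passed, the value was -0.93 in log2 (SE 0.13, adjusted p = 0.0237 with limma). Late samples 1, 2 and 3 and early sample 2, left out one at a time, each took the adjusted p just over the threshold (0.0527 to 0.0570) at log2 differences of -0.92 to -0.94. C cell markers (6 genes) summed to 5.56 and 4.58 UMIs per 10000 in tissue follicular-like cells and to 0.0521 to 0.155 in TFCOs. In endothelial-, mural-, stromal- and immune-like cells the sum was 0.852 to 3.83 (tissue sample 1) and 0.378 to 1.08 (tissue sample 2). The 5 cells left out of tissue sample 1 held Krt7 at 3.05, from 8 UMIs in 2 cells. The part of such cells in the Krt7 level of tissue was not tested.

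Krt19 was at 0.665 and 0.218 in tissue, at 0.259, 0.659 and 0.499 in the late and at 0.411 and 0.198 in the early samples. These ranges overlapped almost fully, and in the fit of all genes the log2 difference was -0.046 (95% interval -0.48 to 0.39, limma adjusted p = 0.866). Groups did not overlap for 5 of the 9 members between TFCOs and tissue (Cdh1, Cd24a, Cdh16, Krt7 and Vim), and for 3 of the 6 members above the filter, against 52.3% of the 4312 genes above it.

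The direction of a difference depends on the scale of the samples, because the tested genes as a whole lay 0.22 higher in TFCOs (median log2 difference). After each sample was centred on its median gene, 474 genes were higher and 481 lower, in place of 1058 and 316. On that scale Cd24a differed by 1.78 (limma adjusted p = 0.00732), Cdh16 by -1.68 (adjusted p = 0.000588) and Cdh1 by 0.53 (adjusted p = 0.137), and the signs of Epcam (0.26), Krt8 (-0.24) and Krt18 (0.017) were kept.

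**Figure D3:**
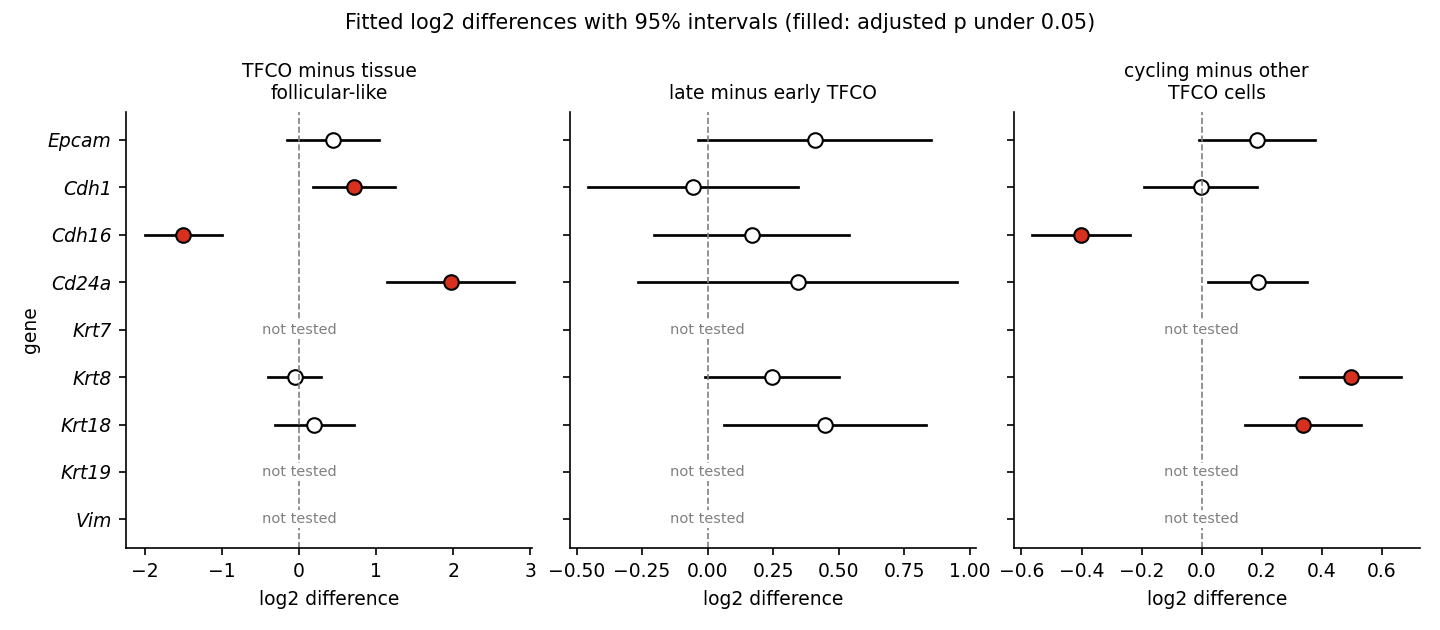
Fitted log2 differences (points) with 95% intervals (lines) for the 9 genes in 3 comparisons, one panel each with its own axis. Filled points passed an adjusted p of 0.05, and genes under the filter on low levels are marked as not tested. Cd24a (1.97), Cdh1 (0.71) and Cdh16 (-1.50) are filled in TFCO minus tissue, no gene in late minus early, and Krt8 (0.50), Krt18 (0.34) and Cdh16 (-0.40) in cycling minus other cells.

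The make-up of the 4 keratins was compared within each sample, which does not depend on scaling between samples. Krt7 made up 42.6 and 23.3% of the summed keratin level in tissue and 2.64 to 4.32% in TFCOs. The difference of -29.5 percentage points had the smallest p that 5 against 2 samples allow (two-sided exact permutation p = 0.0476), and 0.0952 after adjustment over the 4 keratins. Krt18 made up 15.5 and 47.5% in tissue and 43.8 to 63.1% in TFCOs (20.9 points, exact permutation p = 0.143, adjusted 0.190), and tissue sample 2 lay within the TFCO range. Without tissue sample 1 this difference was 4.85 points and without tissue sample 2 it was 36.9.

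Krt8 made up 22.7 and 22.2% in tissue and 25.5 to 29.9% in TFCOs (5.49 points, exact permutation p = 0.0476, adjusted 0.0952). This sign turned with UMIs summed over cells (-2.61 points, but 6.34 without the pair of deepest cells), in thinned cells (-6.01) and against the deeper tissue cluster (-6.08). Krt19 made up 19.3 and 6.996% in tissue and 8.76 to 26.3% in TFCOs, a difference of 3.15 points (exact permutation p = 0.571). The summed level of the 4 keratins was 3.45 and 3.11 in tissue and 1.69 to 3.67 in TFCOs (exact permutation p = 0.333). Of the shares, that of Krt7 differed most.

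**Figure D4:**
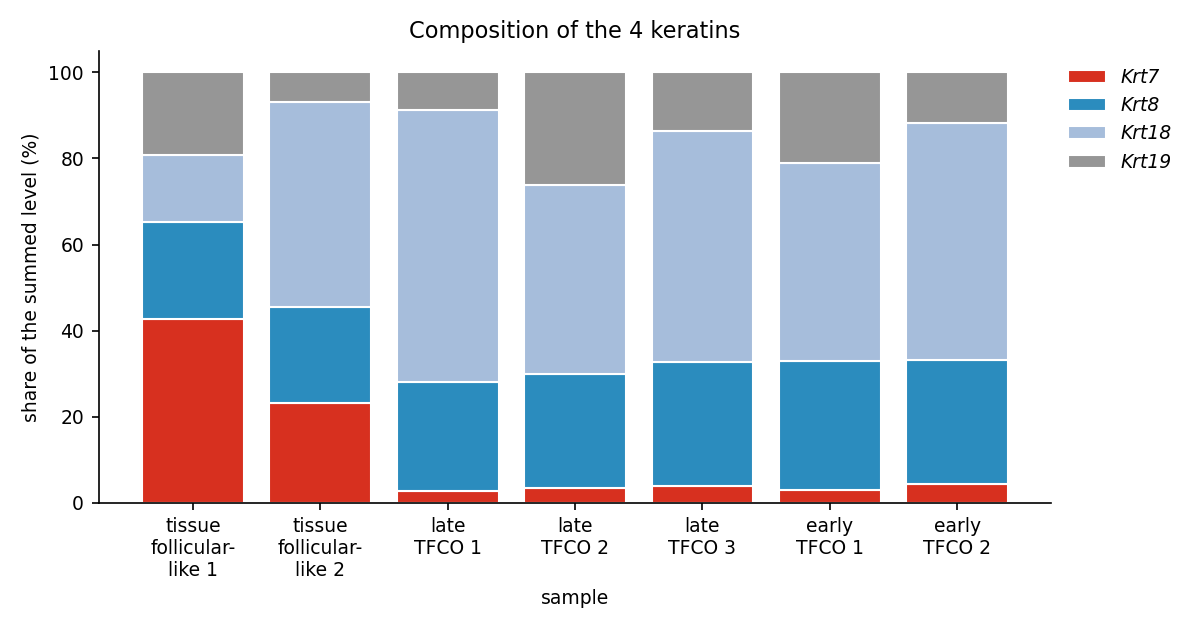
Share of each keratin (%) in the summed level of Krt7, Krt8, Krt18 and Krt19, one stacked bar per sample. The Krt7 part is 42.6 and 23.3% in tissue and 2.64 to 4.32% in TFCOs.

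A cell was counted as keratin-positive if it held at least 1 UMI of any of the 4 keratins. At full depth this held for 33.9 and 42.1% of tissue follicular-like cells and 49.2 to 82.8% of TFCO cells. In cells thinned to 1000 UMIs it held for 27.1 and 21.1% in tissue and 13.1 to 26.0% in TFCOs (exact permutation p = 0.381), so the difference seen at full depth (exact permutation p = 0.0476) was not found at equal depth.

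Vim was near 0 in the follicular-like cells of the gland and in TFCOs. In tissue it was at 0.0867 and 0.0866, in late samples at 0.00317, 0 and 0.0118 and in early samples at 0.0016 and 0.0139. In TFCOs, 6 UMIs of Vim were found in 6 of 1457 cells. Late sample 2 had 0 of 360 cells with Vim, which allows a share of up to 0.833%, and the other TFCO samples had 1 or 2 cells each. In tissue follicular-like cells, 4 of 116 cells held Vim, and 2 once the pair of deepest cells was left out. In the fit of all genes Vim differed by -0.11 in log2 (SE 0.015, adjusted p = 0.0232 with limma), which rests on these few cells. Stromal-like cells of the same tissue, at medians of 5929 and 2121 UMIs, held Vim in 11 of 15 and 5 of 6 cells. The limits cover counting error only.

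Cells with both Vim and a keratin numbered 3 of 116 in tissue and 5 of 1457 in TFCOs at full depth. The 3 tissue cells were all of tissue sample 2 (5.26% against 0% in tissue sample 1), and the pair of deepest cells was among them. In cells thinned to 1000 UMIs the share was 0% in both tissue samples, which allows up to 5.08 and 5.26%, and 0.426% in early sample 1 with none in the other TFCO samples (exact permutation p = 1). No difference was detectable at this depth. The summed markers of mural cells (10 genes) were 5.28 and 5.74 UMIs per 10000 in tissue follicular-like cells and 0.355 to 1.47 in TFCOs, and those of stromal cells (8 genes) 2.17 and 2.87 against 0.239 to 0.733. Their part in the Vim level of tissue was not tested.

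Late and early passage TFCOs were compared to ask whether these genes shift with time in culture. No member passed the test, in a comparison in which 1 of 4312 genes (0.0232%) passed with limma at the adjusted threshold and 892 had an unadjusted p under 0.05. Epcam, Cd24a, Krt7, Krt8 and Krt18 were higher in each late sample than in each early one, 5 of 9 members and 4 of the 6 above the filter. Groups did not overlap, in either direction, for 42.6% of the 4312 genes above it. Krt18 came closest, at 1.87, 1.10 and 1.96 in late and 0.896 and 0.936 in early samples, a log2 difference of 0.45 (SE 0.18, unadjusted p = 0.0258, limma adjusted p = 0.197). Epcam differed by 0.41 (95% interval -0.04 to 0.85) and Krt8 by 0.25 (-0.01 to 0.50), both including 0.

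Cd24a differed by 0.34 (95% interval -0.27 to 0.95) between passages, Cdh16 by 0.17 (-0.21 to 0.54) and Cdh1 by -0.055 (-0.45 to 0.34). Of these, Cdh1 changed sign without early sample 1 (0.020) and Cdh16 without early sample 2 (-0.061). Without early sample 1, 321 genes passed in the whole comparison, and with a term for the deeper, more cycling pair of late sample 2 and early sample 1, 352 genes passed, with no member in either case.

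Cycling cells were set apart in TFCOs as those holding at least 3 of 10 cell cycle markers, none of which is a member. There were 19, 104 and 34 cycling cells in the late and 83 and 27 in the early samples, at median depths of 7999 to 18668 UMIs against 4501.5 to 11198.5 for other cells. Krt8 and Krt18 were higher and Cdh16 lower in cycling than in other cells of the same sample, in 5 of 5 samples. In a fit with a block for each sample, 5.46% of 4724 genes passed with limma, and these 3 members passed.

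Krt8 was at 1.67, 0.948 and 1.59 in cycling cells of the late and at 0.981 and 1.13 in those of the early samples. In other cells it was at 0.696, 0.550, 0.975, 0.367 and 0.427, in the same order. In log2 the difference was 0.50 (SE 0.08, adjusted p = 0.00209 with limma), higher in 5 of 5 samples, and of a similar size in late (0.33 to 0.65) and early samples (0.54 and 0.58). The test of a different size in late and early TFCOs gave -0.10 (95% interval -0.45 to 0.25, adjusted p = 0.939).

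Krt18, the usual partner of Krt8, was at 2.16, 1.33 and 2.64 in cycling cells of the late and at 1.14 and 1.96 in those of the early samples. In other cells it was at 1.85, 1.00, 1.85, 0.762 and 0.840. In log2 the difference was 0.34 (SE 0.09, adjusted p = 0.0445 with limma), higher in 5 of 5 samples. It failed the test under 11 of 13 alternatives (adjusted p from 0.0434 to 0.666 over all), among them without late sample 2 (0.0994), late sample 3 (0.131), early sample 1 (0.118) or early sample 2 (0.125).

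Cdh16 was at 0.736, 0.885 and 0.856 in cycling cells of the late and at 1.16 and 0.347 in those of the early samples. In other cells it was at 1.23, 1.499, 1.67, 1.62 and 0.829. In log2 the difference was -0.40 (SE 0.08, adjusted p = 0.00725 with limma), lower in 5 of 5 samples. Tg was also lower in cycling cells of each sample, by 0.33 to 1.25 on the log2 scale, so that Cdh16 and Tg moved the same way.

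Epcam (0.19, limma adjusted p = 0.278), Cd24a (0.19, adjusted p = 0.201) and Cdh1 (-0.0026, adjusted p = 0.992) did not pass between cycling and other cells. Cd24a was higher in cycling cells in 5 of 5 samples and Epcam in 4 of 5. Cycling cells were deeper than the others in each sample. In cells thinned to 1000 UMIs the differences were 0.57 for Krt8 (adjusted p = 0.227), 0.42 for Krt18 (0.420) and -0.17 for Cdh16 (0.824), and where cycling cells were chosen after thinning they were 0.34 (0.0994), 0.21 (0.345) and -0.19 (0.370). Signs were thus kept at equal depth for these members, and no member passed there.

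**Figure D5:**
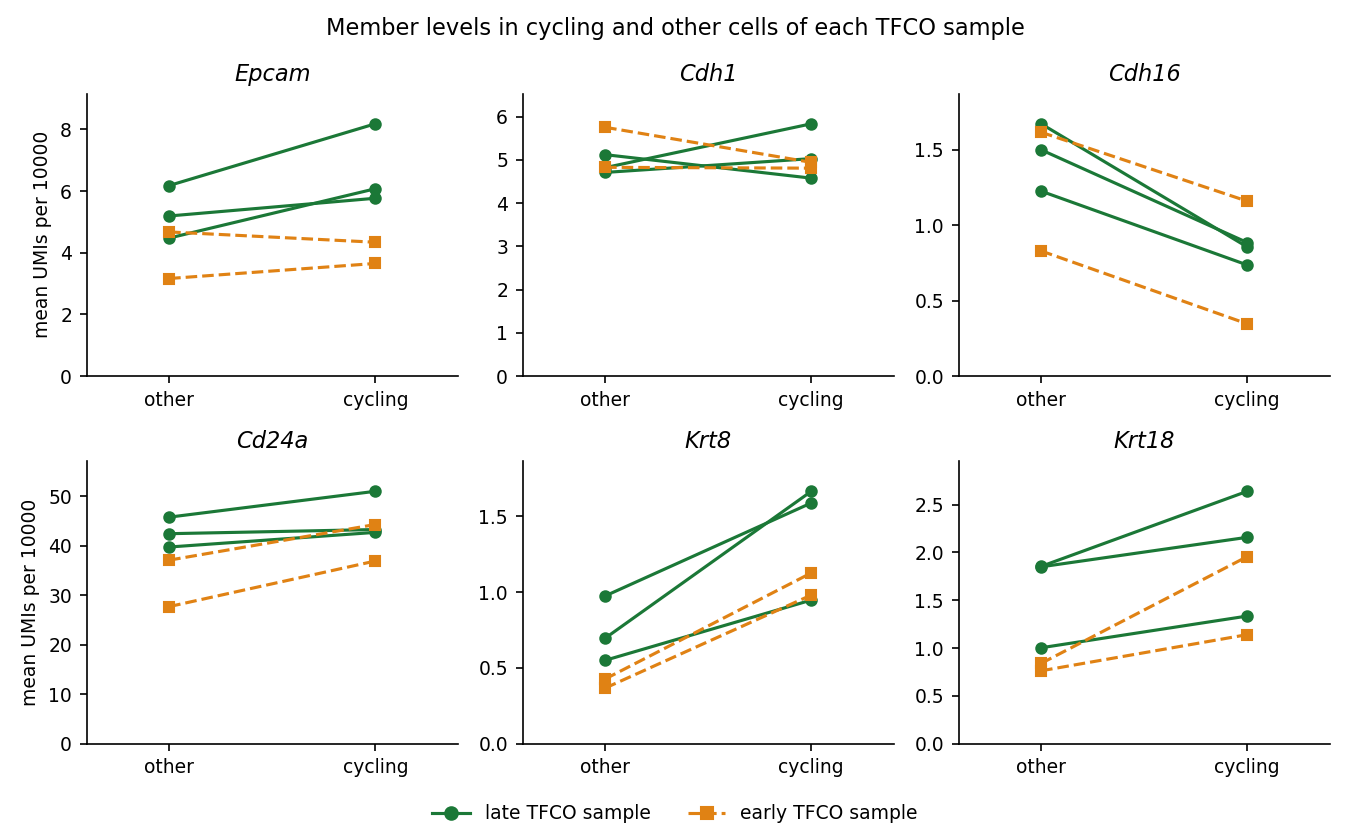
Mean UMIs per 10000 in other and in cycling cells of the same TFCO sample, joined by a line, for late (circles, solid lines, n = 3) and early samples (squares, dashed lines, n = 2). Each panel has its own linear axis starting at 0. Lines rise in 5 of 5 samples for Krt8 and Krt18 and fall in 5 of 5 for Cdh16.

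Other genes of cell adhesion were taken from lists of adherens junction, desmosome, tight junction, epithelial regulator and mesenchymal genes. Of 8 tested adherens junction genes, 5 were higher in TFCOs and none lower, with a list median of 0.54 beside 0.22 for all tested genes. Over all tested genes 24.5% were higher and 7.33% lower, and the counts of the lists are to be read against these shares. Counts and medians leave out genes under the filter, which let in genes high in TFCOs alone more easily. Among listed genes not tested, Perp, Cldn4, Acta2 and Col3a1 were lower in each TFCO sample than in both tissue samples. Esrp2, Vcl, Cdcp1 and the mesenchymal genes Cdh2, Cdh11 and Prrx1, also not tested, were higher in each. These are examples, and the untested genes that went each way were not counted. Ctnnb1, which encodes β-catenin, the partner of cadherins, rose by 1.17 on the log2 scale (limma adjusted p = 0.00607), from 1.07 and 1.81 in tissue to 3.66 to 5.70 in TFCOs. Actn1 (0.90, adjusted p = 0.0128), Nectin3 (0.73, adjusted p = 0.0273) and Ctnnd1 (0.57, adjusted p = 0.0128) were also higher, the last of which encodes p120-catenin, which binds cadherins at the membrane. Afdn, which encodes afadin, was the fifth gene of that list to pass.

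Of 5 desmosome genes, 1 was higher (Pkp2, plakophilin 2, 0.52, limma adjusted p = 0.0232), with a list median of 0.47. Of 7 tight junction genes, Tjp1 (ZO-1, 0.65, adjusted p = 0.0208) and Cgn (cingulin, 0.62, adjusted p = 0.0219) were higher and the claudin Cldn7 (-0.56, adjusted p = 0.0441) lower, with a list median of 0.21. Of 8 epithelial regulators, the transcription factor Ehf (1.36, adjusted p = 0.00252) and the splicing regulator Esrp1 (0.61, adjusted p = 0.0290) were higher, with a list median of 0.36.

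Of 4 mesenchymal genes tested, Tgfbi was higher (2.79, limma adjusted p = 0.00322) and Sparc lower (-1.11, adjusted p = 0.0208), with a list median of 0.22. Tgfbi encodes a matrix protein named for its induction by TGF-β, and it stood at 0.266 and 0.451 in tissue and at 3.95 to 15.1 in TFCOs, while Vim was near 0 there. Zeb1, a repressor of epithelial genes, differed by 0.17 (adjusted p = 0.610). Of 12 other intermediate filament genes 1 could be tested (Lmna, -0.32, adjusted p = 0.0790), and none of the 13 other keratins in the table. No listed gene passed between late and early TFCOs or between cycling and other cells.

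Among the other keratins, Krt5, a keratin of basal cells, was at 0.707 in tissue sample 2 and at 0 in tissue sample 1 and in each TFCO sample. The summed basal markers (3 genes) were 0.651 and 2.19 in tissue follicular-like cells and 0.777 to 1.22 in TFCOs.

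To describe which genes shared the pattern of each member, levels were correlated over 15 points, namely the tissue classes with at least 5 cells in a sample and the 5 TFCO samples, which share libraries and depth. Cdh16 was most like Ppp1r1b (Pearson r = 0.992), Gjb1 (0.989) and Tg (0.975), out of 4813 genes. Epcam was most like Kcnk1 (0.987), Atp1b1 (0.984) and Dsg2 (0.980), and Cdh1 like Atp1b1 (0.986), Cybrd1 (0.980) and Wwc1 (0.975). Krt8 was most like Foxe1 (0.985), Ces1d (0.980) and Cldn3 (0.979). Krt18 was most like Ero1lb (0.957), Prss8 (0.953) and Asgr1 (0.947).

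Cd24a was most like Itga3 (0.961), Fam174b (0.955) and Klhl14 (0.948). Krt7 was most like Folr1 (0.963), with Magt1 (0.892) and Slc4a5 (0.891) further off. Krt19 had the lowest top value, with Lamp1 (0.900) and Rpn2 (0.864), and Vim was most like S100a6 (0.926), Slc29a1 (0.924) and Tnrc6c (0.922). The genes most like Cdh16 and Krt8 thus included Tg and Foxe1, which are markers of the follicular cell. Both belong to the marker list that named the follicular-like class, so any gene found mainly in that class would resemble them here.

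Reads of a gene can be lost to near-identical copies. Of all 50-base stretches in the annotated Krt8 transcripts, 26.9% also occur in another gene, mostly Krt8-ps, but 0% in the last 500 bases, where 3′ counting takes place. For Cd24a the shares were 2.75% overall and 1.26% in the last 500 bases, and for Krt18 0.720 and 1.11%. The other 6 members had at most 0.296% overall. Krt7 overlaps Gm671 and Krt8 overlaps Gm36026 on the other strand, and whether the counting used strand is not given in the sources used here.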

How the data were processed

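The authors deposited 1 table of natural log values, ln(1 + UMIs per 10000) for 30879 genes in 2590 cells. Per the labels' processing notes, Trim Galore 0.4.3, STAR 2.5.3a, Seurat and the build GRCm38/mm10 were used. The cell filter and the role of each tool are not given in the sources used here. The log was undone and each cell divided by its smallest non-zero value, which gave whole numbers for 100% of non-zero values (tolerance 0.01), taken as UMIs. Cells of at least 1000 UMIs were kept.

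Samples were grouped by passage stage. Tissue cells were clustered with scanpy 1.11.5 (2000 variable genes, 30 principal components, 15 neighbours, Leiden by igraph 0.11.9), leaving out the members, the listed pathway genes and genes that follow the well barcode. Naming a cluster from a list required 3 detected markers and, among the 10 leading genes, no more markers of another list. The leading genes (ranked by mean log difference) and the rule for the 6 cells left out were settled after clusters had been seen. No doublet caller was run, and 2 very deep cells were kept.

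Sample means of UMIs per 10000 were tested as log2(mean + 1) in limma 3.58.1 (R 4.3.3), with an empirical Bayes trend and weights of 0.508 for tissue and 1.31 for TFCO samples, where the average of the group means reached 0.5. TFCO is the mean of the late and early groups, which entered the filter as separate groups beside tissue. Fold changes of low genes are understated on this scale. Where a tissue sample was left out, the remaining one was taken to vary as the TFCO groups do. Shares were compared by exact two-sided permutation tests over 21 splits. The fits were tested on simulated data.

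The depth was 1406925 and 1589528 UMIs in tissue, 1985836, 4703472 and 2388697 in late and 3213871 and 2409001 in early samples, and at these depths the low keratins and Vim rest on few UMIs. Limits cover counting error only. The 9 members, the marker lists and the pathway lists were chosen with earlier results of these data known. Named from the lists were up to 4 genes per direction with the largest log2 difference past the threshold, and, per member, the 3 genes most alike, of which 1 is not reported here. Afdn, Krt5, Lmna, Zeb1 and the untested listed genes given as lower or higher in each TFCO sample were named after their values were seen. Alternatives covered the pseudocount, filter, scaling, cell minimum, thinning, weights, cell classes and each sample left out.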

Additional observations from a re-analysis of the deposited data

How the results depend on the processing

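Between TFCOs and tissue, 2 to 4 members passed the threshold under the 23 alternatives run, and Cdh16 passed in each. Which other members passed changed between alternatives. With no filter, where 2.84% of 30756 genes passed, the members were Cdh16, Cd24a, Krt7 and Vim. With UMIs summed over cells, neither Cd24a nor Cdh1 passed. The number of all genes past the threshold fell from 1374 to 874 with no filter, 181 with UMIs summed over cells (1266 without the pair of deepest cells), 755 with cells of 2000 UMIs or more, 884 with thinned cells and 110 against the deeper cluster alone. The alternatives on the deeper cluster, the pair of deepest cells, the wider set of cells left out of the follicular-like class, the late against early cycling differences, cycling cells chosen after thinning, Vim at full depth and the fit of Krt7 with all genes were chosen after seeing the data. Fewer cells or samples enter some of these, and otherwise the cause was not tested. The sign of Krt18 turned with UMIs summed (-0.10, but 0.27 without the pair of deepest cells), against the deeper cluster (-0.14) and without tissue sample 1, with a range of -0.15 to 0.55 over samples left out. Between late and early TFCOs, 82 genes passed with cells of 500 UMIs or more and 352 with a term for late sample 2 and early sample 1, and 1 to 321 with a sample left out. Over samples left out, Cdh1 ranged from -0.13 to 0.020 and Cdh16 from -0.061 to 0.40.

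Between cycling and other cells, the 258 genes became 50 with no filter, 45 with thinned cells and 70 with cycling cells chosen after thinning, and 119 to 191 with a sample left out, with 137 without late sample 2, 119 without late sample 3 and 146 without early sample 1. The 3 members became 1 with no filter, 1 with at least 5 markers, 0 with thinned cells and 0 with cycling cells chosen after thinning. Without the replicate block of the 2 means of a sample, 50 genes and 0 members passed. Cdh1 turned to 0.051 with UMIs summed and 0.069 with cycling cells chosen after thinning, and ranged from -0.061 to 0.043 over samples left out. No member passed in the test of late against early cycling differences under any of the alternatives run. No paired analysis was possible because no label ties a tissue sample, a late sample and an early sample to each other.

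The share of Krt8 among keratins turned as given above (-2.61, -6.01 and -6.08 points), that of Krt18 ranged from 4.85 to 36.9 and that of Krt19 from -2.99 to 9.29 points over samples left out, and Krt19 turned to -0.22 points with UMIs summed without the pair of deepest cells. The share of cells with Vim and a keratin, TFCO minus tissue, went from 0.0851 points in thinned cells to -2.25 at full depth. The latter rests on cells of tissue sample 2 that include the pair of deepest cells. Depth limits Vim, Krt7 and Krt19 most.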
